A study of Mus musculus with 6 samples.

Results

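The transcription factor p53, the product of Trp53, and 9 of its target genes were followed in subcutaneous tumours of B16F10 cells, a mouse melanoma line. The 10 genes were chosen by name, for roles in cell cycle arrest, apoptosis and feedback on p53, with earlier results of these data known. All 10 were found among the 20938 genes of the deposited table. The YKL-40 tumours came from cells labelled as overexpressing YKL-40, a secreted chitinase-like protein, and the Control tumours came from cells labelled Control, with 3 libraries in each group. Both groups carry the genotype label WT, and the cells grew in male C57BL/6 mice aged 6 weeks, injected in 200 µL of saline at the left hind leg, until day 19. The labels give neither the vector of the Control cells nor the species of the YKL-40 sequence, and do not say whether the cells were 1 clone or a pool. Nor do they say that each library is another mouse, so p-values here set differences against a spread between libraries that may be technical.

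In unstressed cells p53 is kept scarce by MDM2, a ubiquitin ligase that marks it for degradation. Damage or stress frees p53, which then switches on genes that stop the cell cycle, genes that open the way to apoptosis and genes that restrain p53 itself, MDM2 among them. Control of p53 acts mainly on the protein, so the level of Trp53 RNA and the levels of its targets are separate measurements.

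The promoters of 9 of the 10 genes, in RefSeq's GRCm38.p6 (mm10), were searched for the p53 response element, a pair of decamers (10 bases each). The consensus of a decamer is RRRCWWGYYY, with CWWG as its core, where R is A or G, W is A or T and Y is C or T. It reads alike on both strands, so a search of 1 strand covers both. A match had 2 decamers that kept the C and G of each core, at most 13 bases between them and at most 1 mismatch to the consensus. Each promoter ran from 250 bases before to 50 bases after a start site. Matches were present in Ccng1 and in the upstream promoter of Cdkn1a, against 206 of all 32851 promoters (0.63%). Single decamers that meet the consensus in full were counted apart: 7 of the 14 promoters of these genes held at least 1, against 2745 of all promoters (8.36%). They belonged to Trp53, Mdm2, Cdkn1a, Ccng1, Bax and, in overlapping windows, Aen. Both promoters of Gdf15 held neither a match nor a consensus decamer, and Trp53inp1 is named only. The promoters below are those of the gene that fell in YKL-40 tumours and of a pair that did not pass the test; capitals mark the decamers of a match, or in Bax the lone decamer.
Ccng1, chr11:40755237-40755536, minus strand: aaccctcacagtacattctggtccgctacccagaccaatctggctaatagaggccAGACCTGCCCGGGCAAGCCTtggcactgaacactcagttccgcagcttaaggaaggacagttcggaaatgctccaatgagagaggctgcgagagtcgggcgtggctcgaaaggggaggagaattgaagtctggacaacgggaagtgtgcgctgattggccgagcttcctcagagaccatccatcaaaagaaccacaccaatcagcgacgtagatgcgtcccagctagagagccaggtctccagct
Cdkn1a, chr17:29090729-29091028, plus strand: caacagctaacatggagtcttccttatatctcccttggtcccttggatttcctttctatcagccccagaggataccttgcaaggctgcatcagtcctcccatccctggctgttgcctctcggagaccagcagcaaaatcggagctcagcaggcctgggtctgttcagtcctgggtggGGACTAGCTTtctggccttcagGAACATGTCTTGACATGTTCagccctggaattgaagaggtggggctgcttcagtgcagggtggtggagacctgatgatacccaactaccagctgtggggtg
Bax, chr7:45466849-45467148, minus strand: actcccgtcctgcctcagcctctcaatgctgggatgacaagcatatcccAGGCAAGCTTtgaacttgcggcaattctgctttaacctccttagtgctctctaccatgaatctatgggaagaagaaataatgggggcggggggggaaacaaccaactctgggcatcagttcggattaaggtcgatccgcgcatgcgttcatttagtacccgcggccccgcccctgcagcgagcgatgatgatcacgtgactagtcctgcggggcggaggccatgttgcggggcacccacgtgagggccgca

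In Ccng1 the decamers adjoined between 195 and 176 bases before the start site. Their 1 mismatch was inside the core of the first decamer, which read CCTG. In Cdkn1a 3 decamers gave 2 matches that shared the middle one: a pair with 0 mismatches and a spacer of 12 bases, and an adjoining pair with 1 mismatch that ended 32 bases before the start site. The downstream promoter of Cdkn1a held no match and no consensus decamer. These matches describe letters in a window; binding of p53 was not measured here.

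The table gives FPKM, fragments scaled to transcript length and library depth, so levels can be compared between genes. Changes are YKL-40 minus Control on the log2(FPKM + 1) scale with their standard error; on this scale the changes of weakly expressed genes come out too small. They were tested with limma over the 11241 genes that averaged 1 FPKM or more across the 6 libraries, a filter that all 10 genes passed. Libraries had estimated depths of 0.947 to 1.20 in YKL-40 tumours and 1 to 1.33 in Control tumours, relative to Control library 1, and total read numbers are unknown. The gene of YKL-40, Chil1 in the file, was listed at 0 in all 3 YKL-40 libraries, against 0.0644, 0 and 0.0242 FPKM in Control libraries (exact permutation test, two-sided, p = 0.4; 3 against 3 libraries cannot give less than 0.1). This checks the labels only if the expressed sequence was of mouse origin, so every direction rests on the labels. Melanocyte markers were abundant in both groups, Pmel averaging 4906 ± 753 FPKM in YKL-40 tumours and 3752 ± 122 FPKM in Control tumours (SD, n = 3 each), while 3 of 5 keratinocyte markers were at 0 in every library.

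Of the 10 genes, 1 fell in YKL-40 tumours, Ccng1, and 0 rose, at an adjusted p below 0.05. Among all tested genes, 8 were called lower (0.0712%) and 41 higher (0.365%), together 0.436%. A further 3 of the 10, Gdf15, Aen and Trp53inp1, were lower in every YKL-40 library than in any Control library without passing the adjusted test. With Ccng1 that made 4 of 10 whose groups did not overlap in the lower direction, where the share over all tested genes was 14.2%, and 0 of 10 in the higher direction, where it was 10.3%. The same 4 had an unadjusted p below 0.05, against 9.24% of all tested genes in the lower and 8.71% in the higher direction. The remaining 6 genes, among them Cdkn1a and Bax, had overlapping groups. The changes of the 10 had a median of -0.43, where all tested genes had a median of -0.04, and 8 of 10 were below 0, against 57.8% of all tested genes. Because the 10 were chosen with earlier results of these data known, these shares and medians do not test them as a set.

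**Figure D1:**
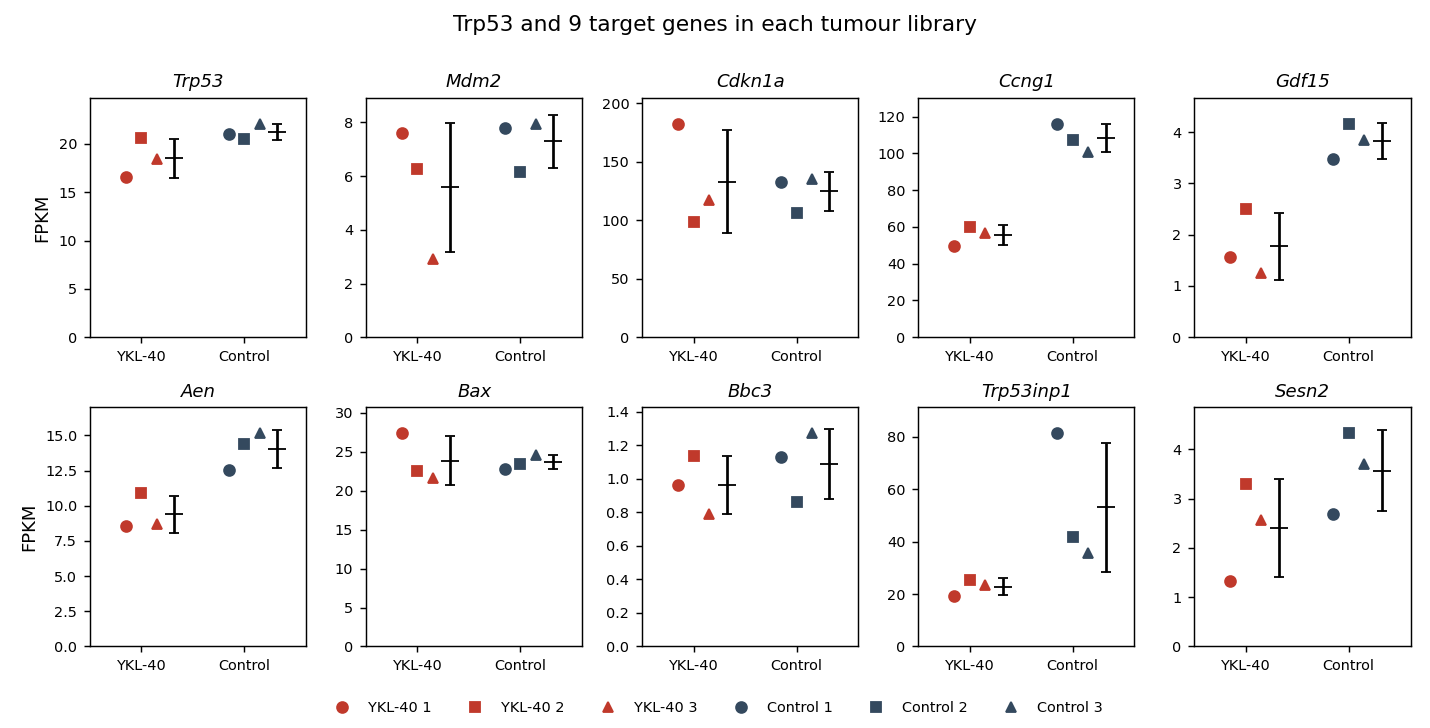
FPKM (vertical axis, from 0, a scale of its own for each gene) of Trp53 and 9 targets in the YKL-40 and Control libraries; each point is 1 library, its shape the library number, and the bar beside it the mean and SD. Points of Ccng1, Gdf15, Aen and Trp53inp1 separate the groups, with YKL-40 below Control, and those of the other 6 genes overlap.

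Trp53 itself (chromosome 11, 69580348 to 69591873) had 16.6, 20.6 and 18.4 FPKM in YKL-40 libraries 1 to 3, against 21.1, 20.5 and 22.1 FPKM in Control libraries 1 to 3. The groups met at YKL-40 library 2, which lay just above Control library 2. The change was -0.19 ± 0.10 (limma, adjusted p = 0.382), with a 95% confidence interval of -0.43 to 0.05.

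Mdm2 (chromosome 10, 117688875 to 117710758), the ligase and itself a target, had 7.60, 6.25 and 2.91 FPKM in YKL-40 libraries and 7.80, 6.17 and 7.95 FPKM in Control libraries. YKL-40 library 3 was low and the other two lay within the range of the Control libraries. The change of -0.40 ± 0.28 (adjusted p = 0.486) was -0.07 without YKL-40 library 3.

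Ccng1 (chromosome 11, 40748552 to 40755309) encodes cyclin G1, which brings a phosphatase to MDM2 and so acts in feedback on p53. It had 49.8, 60.1 and 56.6 FPKM in YKL-40 libraries, against 116, 108 and 101 FPKM in Control libraries. Every YKL-40 library lay far below every Control library, and the spread within each group was small. The mean of 55.5 ± 5.25 FPKM in YKL-40 tumours was 0.513 times the 108 ± 7.62 FPKM of Control tumours (SD, n = 3 each). On the log2 scale Ccng1 fell by 0.95 ± 0.11 (limma, adjusted p = 0.0303; 95% confidence interval -1.20 to -0.71). The change stayed between -1.01 and -0.88 when any 1 library was left out. The call was lost without YKL-40 library 1 (adjusted p = 0.0954), YKL-40 library 3 (0.0528), Control library 1 (0.0946) or Control library 2 (0.103), and without a filter on low values (0.106).

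Cdkn1a (chromosome 17, 29090979 to 29100722) encodes p21, the inhibitor of cyclin-dependent kinases through which p53 arrests the cell cycle. Its levels were 182, 98.7 and 118 FPKM in YKL-40 libraries and 133, 106 and 135 FPKM in Control libraries. YKL-40 library 1 was the highest and YKL-40 library 2 the lowest of all 6. The change was 0.05 ± 0.22 (adjusted p = 0.929), with a 95% confidence interval of -0.47 to 0.58 that leaves room for a moderate change in either direction. Without YKL-40 library 1 it was -0.20 and without Control library 2 it was -0.06. Of its 2718 exonic bases, 273 (10%) overlap a gene on the opposite strand in GENCODE M21; the library kit keeps no strand, so those reads cannot be told apart.

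Bax (chromosome 7, 45461695 to 45466903) and Bbc3 (chromosome 7, 16308398 to 16318334) encode the BCL2 family proteins through which p53 opens the mitochondrial path to apoptosis, BAX as the pore former and PUMA as a trigger. Bax had 27.4, 22.6 and 21.6 FPKM in YKL-40 libraries, against 22.8, 23.5 and 24.6 FPKM in Control libraries. The change was 0.01 ± 0.11 (adjusted p = 0.98), and its 95% confidence interval of -0.25 to 0.27 is narrower than those of Bbc3 and Aen. Its sign turned without YKL-40 library 1 (-0.09) and without Control library 1 (-0.02). A gene on the same strand shares 192 of its 867 exonic bases (22.1%), and the sources used here do not say how such reads were split. Bbc3 was near the filter in both groups, with 0.966, 1.14 and 0.788 FPKM in YKL-40 libraries and 1.13, 0.861 and 1.27 FPKM in Control libraries. Its change of -0.09 ± 0.15 did not pass (adjusted p = 0.794).

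Aen (chromosome 7, 78895927 to 78911209) encodes a nuclease that p53 induces and that enhances apoptosis. It had 8.58, 10.9 and 8.71 FPKM in YKL-40 libraries, against 12.6, 14.4 and 15.2 FPKM in Control libraries, so the groups were apart. The change of -0.53 ± 0.13 did not pass over all genes (adjusted p = 0.1).

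Trp53inp1 (chromosome 4, 11156441 to 11174379) encodes a stress-induced nuclear protein that takes part in the phosphorylation of p53. It had 19.1, 25.5 and 23.6 FPKM in YKL-40 libraries, against 81.4, 41.9 and 35.7 FPKM in Control libraries. Control library 1 stood apart, above the sum of the other two, and all 3 Control libraries were above all YKL-40 libraries. The change was -1.10 ± 0.29 (adjusted p = 0.126), and -0.75 without Control library 1.

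Gdf15 (chromosome 8, 70629393 to 70632470), a secreted member of the TGF-beta family, had 1.56, 2.50 and 1.25 FPKM in YKL-40 libraries, against 3.47, 4.16 and 3.85 FPKM in Control libraries. Every YKL-40 library was below every Control library. The mean in YKL-40 tumours was 0.463 times that in Control tumours, and the change of -0.82 ± 0.18 did not pass (adjusted p = 0.0881). It passed in 1 of 6 fits that left out 1 library, the one without YKL-40 library 2, at -1.003 (limma, adjusted p = 0.0305). That fit called 238 of all tested genes, where the fit with all 6 libraries called 49. Over the 6 fits the adjusted p of Gdf15 reached 0.288.

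Sesn2 (chromosome 4, 132492804 to 132510456) encodes sestrin 2, which restrains mTORC1 under stress and is also induced through the transcription factor ATF4. It had 1.33, 3.31 and 2.57 FPKM in YKL-40 libraries and 2.69, 4.33 and 3.70 FPKM in Control libraries. The groups overlapped, and the change was -0.46 ± 0.25 (adjusted p = 0.38), and -0.20 without YKL-40 library 1.

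By level, Cdkn1a was the most abundant of the 10 in YKL-40 tumours at 133 ± 43.9 FPKM, and Ccng1 came next without overlap. In Control tumours Cdkn1a averaged 125 ± 16.5 FPKM and its range overlapped that of Ccng1. Bax, Trp53inp1 and Trp53 followed in YKL-40 tumours with ranges that overlapped from neighbour to neighbour, while in Control tumours Trp53inp1, Bax and Trp53 were apart in that order. Aen, Mdm2, Sesn2, Gdf15 and Bbc3 were the lowest 5 in both groups, Bbc3 last of all. Within these, Sesn2 and Gdf15 overlapped in both groups, Mdm2 and Sesn2 in YKL-40 tumours.

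Dividing 1 gene by another within a library removes the scale of the library and sets genes that were lower against genes that were not. Ccng1 was 3.00, 2.92 and 3.07 times Trp53 in YKL-40 libraries, against 5.51, 5.25 and 4.57 times in Control libraries. Relative to Cdkn1a it was 0.273, 0.609 and 0.482 in YKL-40 libraries and 0.874, 1.02 and 0.745 in Control libraries, and relative to Bax it was 1.82, 2.66 and 2.62 in YKL-40 libraries and 5.08, 4.59 and 4.10 in Control libraries. Ccng1 thus lay lower against both genes in every YKL-40 library. The groups were also apart for Ccng1 relative to Aen and to Bbc3, and for Gdf15, Aen and Trp53inp1 relative to Trp53. Those 8 of 17 ratios, which share genes with each other, each had an exact two-sided permutation p of 0.1, the smallest that 3 against 3 libraries allow (adjusted over the 17, p = 0.213). These ratios re-use the values in which Ccng1, Gdf15, Aen and Trp53inp1 were already lower, so they are not a further test of those genes. The ratios of Cdkn1a, Bax, Bbc3, Mdm2 and Sesn2 to Trp53 overlapped between the groups, as did those of Ccng1 to Gdf15, Trp53inp1, Mdm2 and Sesn2.

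**Figure D2:**
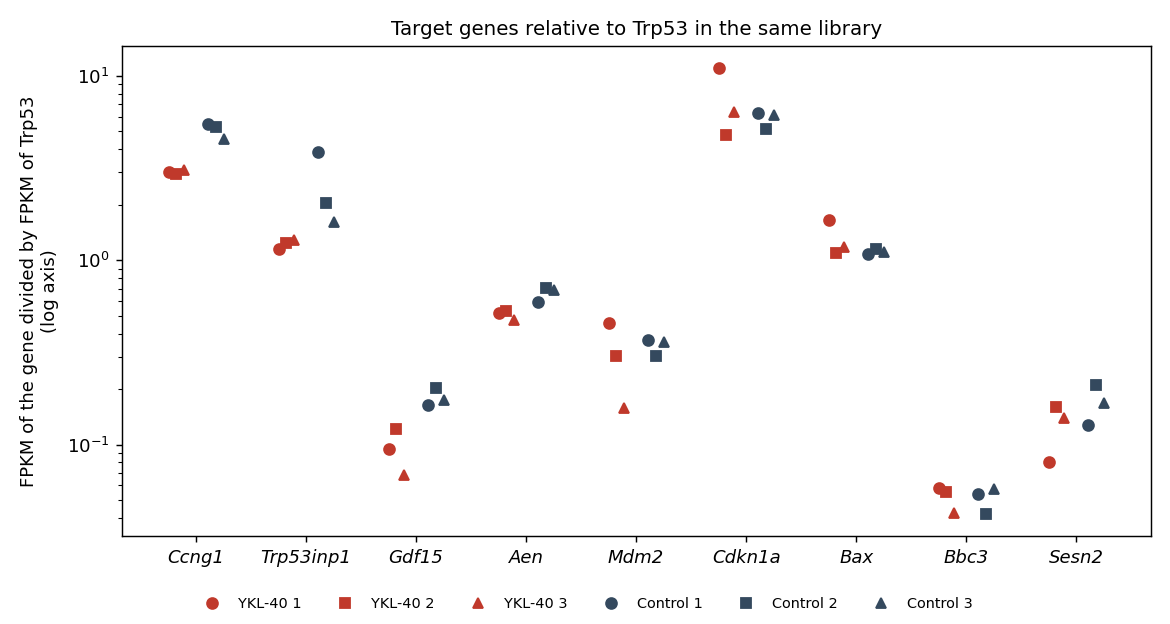
FPKM of each target divided by that of Trp53 in the same library (log axis), YKL-40 libraries left of Control libraries for each gene; each point is 1 library. Ccng1 lay between 2.92 and 3.07 times Trp53 in YKL-40 libraries, against 4.57 to 5.51 times in Control libraries, while the points of Cdkn1a, Bax and Bbc3 overlap.

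The other targets of p53 lay on both sides of 0, and 0 of them passed the adjusted limma test. Of 41 listed targets outside the 10, 36 could be tested; 8 had an unadjusted p below 0.05 in the lower and 3 in the higher direction, where the shares over all tested genes were 9.24% and 8.71%. The groups of 12 did not overlap in the lower and those of 2 in the higher direction, against 14.2% and 10.3% of all tested genes. Their median change was -0.12, and 20 of 36 were below 0. The 5 below the filter, and so not tested, were Rprm, Pmaip1, Fas, Perp and Eda2r. Rprm was at 0 in every library but Control library 3, at 0.0641 FPKM. Pmaip1 averaged 1.42 FPKM in YKL-40 tumours and 0.436 FPKM in Control tumours, with overlapping groups. Fas averaged 0.141 and 0.0519 FPKM in these groups, and every YKL-40 library was above every Control library. Perp and Eda2r averaged below 0.3 FPKM in both groups and overlapped.

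Among 11 tested genes of arrest and feedback the median was -0.13. Zmat3, which encodes an RNA-binding zinc finger protein, averaged 85.8 ± 15.3 FPKM in YKL-40 tumours and 147 ± 35.7 FPKM in Control tumours (-0.75 ± 0.19, adjusted p = 0.121). Plk2, a polo-like kinase gene, averaged 4.26 ± 0.166 FPKM in YKL-40 tumours and 6.06 ± 0.66 FPKM in Control tumours (-0.42 ± 0.11, adjusted p = 0.125). Cop1, the gene of another ubiquitin ligase of p53, averaged 25.2 ± 1.51 FPKM in YKL-40 tumours and 32.2 ± 1.73 FPKM in Control tumours (-0.34 ± 0.09, adjusted p = 0.135). In each of these the YKL-40 libraries were all below the Control libraries, without passing.

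Among 9 tested apoptosis genes the median was 0.01. Tnfrsf10b, the gene of a death receptor, averaged 4.17 ± 0.954 FPKM in YKL-40 tumours and 6.42 ± 0.782 FPKM in Control tumours (-0.53 ± 0.16, adjusted p = 0.17). Apaf1, whose product forms the apoptosome, had a change of -0.30 ± 0.11. Dram1, a regulator of autophagy, went the other way, with 3.10 ± 1.51 FPKM in YKL-40 tumours and 0.956 ± 0.626 FPKM in Control tumours (1.04 ± 0.34, adjusted p = 0.186). Its Control mean was below 1 FPKM, so it passed the filter only through YKL-40 tumours.

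Among 16 tested genes of repair and metabolism the median was -0.15. Tigar, which lowers glycolysis, had a change of -0.24 ± 0.09, Rrm2b, a subunit of ribonucleotide reductase, of -0.39 ± 0.15, and Ckap2, of a protein of the spindle, of -0.31 ± 0.12 (adjusted p from 0.219 to 0.252). Of the 32 other targets with a listed promoter, 2 held a match to the response element, Gtse1 and Pml, named here for that match. Gtse1 had a change of -0.24 and Pml of 0.42, and neither passed.

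**Figure D3:**
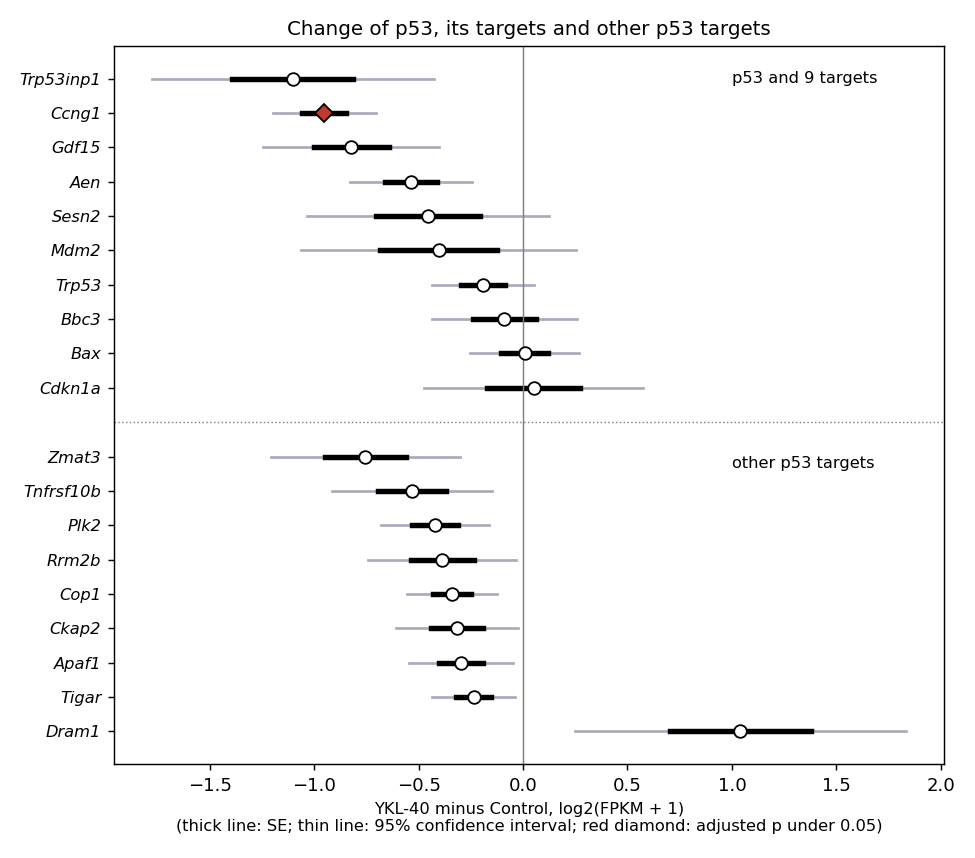
Change of Trp53 and the 9 targets (top) and of the other targets named by rule (bottom), YKL-40 minus Control on the log2(FPKM + 1) scale; thick lines are standard errors, thin lines 95% confidence intervals, and the red diamond has an adjusted p below 0.05. Ccng1 at -0.95 is the diamond, Trp53inp1 lies further left at -1.10 with a wider interval, and Dram1 lies at 1.04.

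Upstream of p53, 0 of 11 tested regulators passed, 0 had an unadjusted p below 0.05 and the changes ran from -0.19 to 0.15. Those of lowest p were Trp53bp1, which encodes a reader of DNA breaks, at -0.19 ± 0.12, Prkdc, the gene of the DNA-dependent protein kinase, at -0.19 ± 0.16, and Kat5, an acetyltransferase gene, at 0.15 ± 0.12. Cdkn2a, which encodes p16 and the MDM2 inhibitor p19Arf, was close to 0 everywhere, with 0.0732, 0.0238 and 0.0819 FPKM in YKL-40 libraries and 0.0285, 0 and 0.0811 FPKM in Control libraries.

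Mdm4, whose product binds p53 and blocks its activity, was singled out among the regulators after its values were seen. It had 20.9, 25.7 and 126.6 FPKM in YKL-40 libraries and 140.5, 27.1 and 22.02 FPKM in Control libraries. A single library of each group stood far above the other two, and the groups overlapped, with a change of -0.10 ± 0.86. The high Mdm4 library of the YKL-40 group was also its lowest for Mdm2, while the high one of the Control group was its highest for Trp53inp1, Zmat3 and Ccng1. Neither pattern recurred in the other group. The high YKL-40 library was the middle one of its group for Trp53inp1, Zmat3 and Ccng1, and the high Control library was the middle one for Mdm2.

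BCL2 family genes outside the 10 had a median change of 0.16 over 9 tested genes, of which 7 were above 0. None passed the adjusted test, and 2 had an unadjusted p below 0.05, both higher, where the share over all tested genes was 8.71%. Bcl2l11, which encodes the apoptosis trigger BIM, had 13.1, 14.5 and 15.6 FPKM in YKL-40 libraries and 9.91, 10.6 and 12.8 FPKM in Control libraries. Bcl2, the founding inhibitor of apoptosis in the family, had 62.4, 45.2 and 52.5 FPKM in YKL-40 libraries and 35.7, 44.3 and 44.6 FPKM in Control libraries. All YKL-40 libraries were above all Control libraries for both genes, as for 10.3% of all tested genes, with changes of 0.35 ± 0.12 and 0.35 ± 0.15 (adjusted p = 0.202 and 0.272). Bcl2l1, the gene of BCL-XL, overlapped between groups at 0.28 ± 0.13.

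When p21 is induced, the DREAM complex represses many genes of the cell cycle. The 12 such genes listed were all tested, 0 passed, 0 had an unadjusted p below 0.05, and their median change was 0.03 with a range of -0.10 to 0.27. Plk1, a mitotic kinase gene, was at the top of that range, and Ccnb2 and E2f1, the genes of a mitotic cyclin and of a factor for S phase entry, had changes of 0.15 and 0.19.

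Because Sesn2 is shared with ATF4, the factor that answers amino acid and endoplasmic reticulum stress, Atf4 and its targets were set beside it. Of 9 tested, 0 passed, 0 had an unadjusted p below 0.05, and the median change was -0.19. Atf4 had 48.3, 51.9 and 41.8 FPKM in YKL-40 libraries and 37.4, 60.1 and 45.5 FPKM in Control libraries, and the groups overlapped. Chac1, which degrades glutathione, had 6.93, 18.4 and 9.91 FPKM in YKL-40 libraries and 12.5, 31.2 and 21.9 FPKM in Control libraries (-0.86 ± 0.40, adjusted p = 0.31). It was called lower with array quality weights, at -1.21 (limma, adjusted p = 0.0486). That fit called 446 of all 11241 tested genes lower, where the fit without weights called 8. Library 2 was the highest of its group in both groups for Chac1, Sesn2 and Gdf15, a pattern singled out after the values were seen. The same held for Atf4, Asns, Trib3, Psat1, Phgdh and Atf5 of the ATF4 list, but not for its Ddit3, Sesn3 and Vldlr. Ddit3, the gene of CHOP, and Asns, of asparagine synthetase, had changes of 0.33 and -0.34, neither of which passed; leaving out 1 library moved them between 0.07 and 0.61 and between -0.50 and -0.19.

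**Figure D4:**
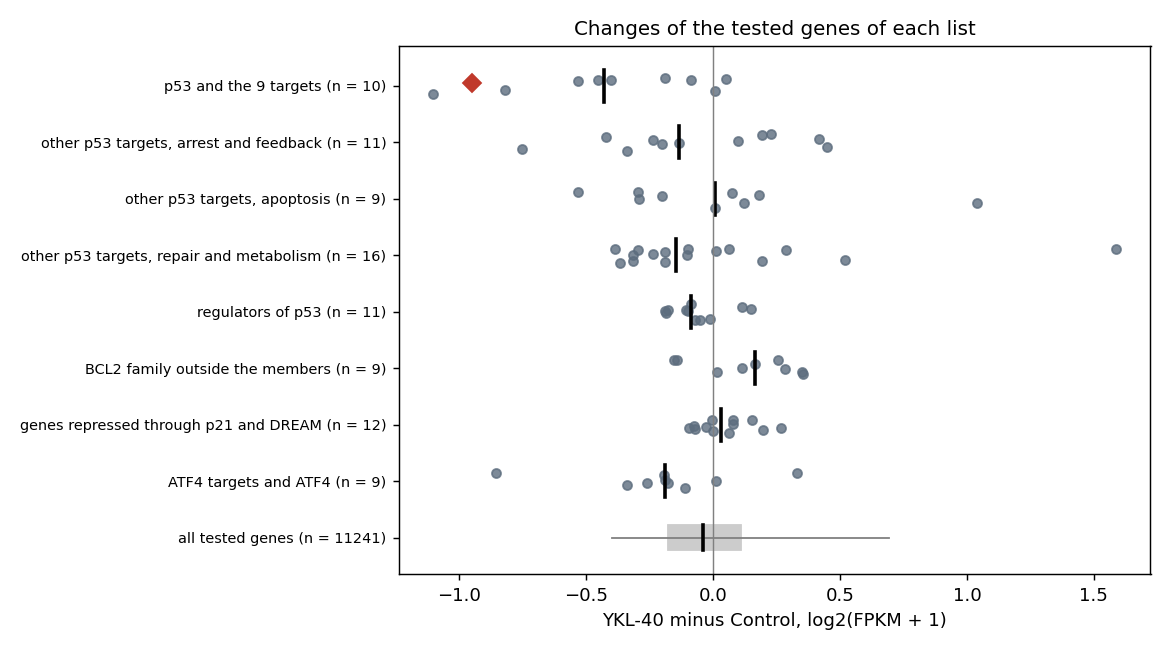
Changes of the tested genes of each list, YKL-40 minus Control on the log2(FPKM + 1) scale; each point is 1 gene, the black bar the median of the list, the red diamond Ccng1 with an adjusted p below 0.05, and the lowest row shows the 5th to 95th percentile (line) and the quartiles (box) of all 11241 tested genes. The 10 genes have a median of -0.43, and the medians of the other 7 gene lists drawn lie between -0.19 and 0.16. The 10 genes and the lists were chosen with earlier results of these data known.

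These are whole tumours, in which fewer cells of a type and less RNA per cell cannot be told apart. Summed FPKM of 8 melanocyte markers overlapped, at 9628, 11766 and 11341 in YKL-40 libraries and 10292, 10889 and 9458 in Control libraries. The markers went both ways, with 5 of the 8 changes below 0, and 0 passed. With an unadjusted p below 0.05, 2 were higher and 0 lower, against 8.71% and 9.24% of all tested genes. The sum of 8 macrophage markers was 196, 250.2 and 326 in YKL-40 libraries and 56.5, 95.4 and 153 in Control libraries, and 0 of the 8 passed. At an unadjusted p below 0.05, 7 of the 8 were higher, against 8.71% of all tested genes. C1qa, the most abundant of them over all 6 libraries, averaged 76.2 ± 19.99 FPKM in YKL-40 tumours and 22.2 ± 9.82 FPKM in Control tumours (SD, n = 3 each). Aif1, among the 7, averaged 0.727 FPKM in Control tumours and passed the filter only through YKL-40 tumours. Of 8 markers of T and NK cells 4 were tested and 2 rose, where 0.365% of all tested genes were called higher. Among the 2 was Gzmb, the gene of granzyme B (2.75, limma, adjusted p = 0.04). All 4 averaged between 0.0524 and 0.182 FPKM in Control tumours and passed the filter only through YKL-40 tumours. Their direction was thus fixed by the filter, and the share over all tested genes is no fair measure for them. The sum of the 8 was 23.5, 9.12 and 33.0 in YKL-40 libraries and 0.462, 1.29 and 1.42 in Control libraries. Fibroblast sums ranged from 221 to 404 in YKL-40 libraries and from 30.4 to 243 in Control libraries, and so overlapped. Of 7 fibroblast markers 0 passed, and 6 were higher at an unadjusted p below 0.05, against 8.71% of all tested genes. Col3a1, the most abundant of the 7 over all 6 libraries, averaged 111 ± 38.3 FPKM in YKL-40 tumours and 35.9 ± 33.6 FPKM in Control tumours. Endothelial sums overlapped as well, and the median change of their 6 markers was 0.12, where that of the fibroblast markers was 1.81.

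The summed FPKM of 10 skeletal muscle markers was 7.08, 23.8 and 3.19 in YKL-40 libraries and 69.2, 35.4 and 152 in Control libraries; 0 of the 8 tested passed, and 7 had an unadjusted p below 0.05 in the lower direction, where the share over all tested genes was 9.24%. Tnnt3, a troponin gene and the most abundant of them over all 6 libraries, averaged 2.49 ± 3.03 FPKM in YKL-40 tumours and 30.3 ± 22.7 FPKM in Control tumours. Myh4, Myh1, Actn3 and Atp2a1 averaged between 0.244 and 0.653 FPKM in YKL-40 tumours and passed the filter only through Control tumours. Their lower direction was thus fixed by the filter, and the share over all tested genes is no fair measure for them. Within the Control group library 3 had the lowest Ccng1 and the lowest melanocyte sum. That library had the highest muscle, macrophage, T and NK cell, fibroblast and endothelial sums of its group. Within the YKL-40 group library 2 had the highest Ccng1 and the highest melanocyte, muscle and endothelial sums. Its T and NK cell and fibroblast sums were the lowest of the group and its macrophage sum the middle one. The part of any of these cell types in the level of Ccng1 was not tested.

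**Figure D5:**
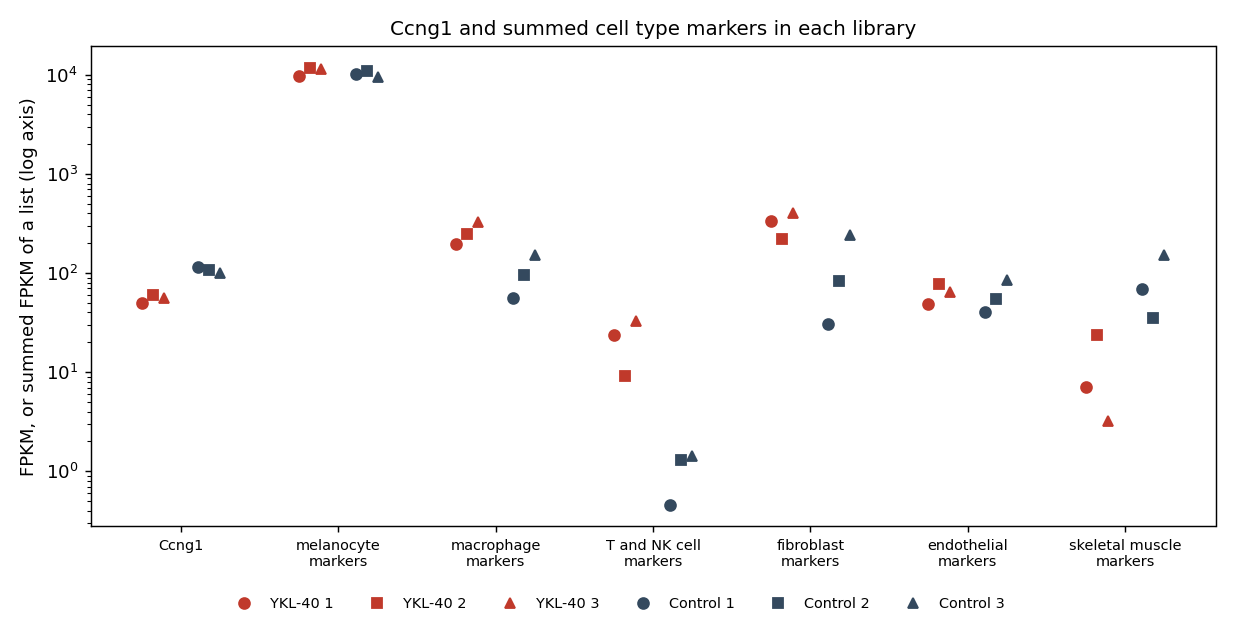
FPKM of Ccng1 and summed FPKM of the marker lists (log axis), YKL-40 libraries left of Control libraries in each column; each point is 1 library. Macrophage and T and NK cell sums are higher and Ccng1 and skeletal muscle sums lower in every YKL-40 library than in any Control library, while melanocyte, fibroblast and endothelial sums overlap.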

How the data were processed

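RNA of 6 tumour libraries was sequenced with the TruSeq RNA V2 kit, which keeps no strand. The authors deposited FPKM per gene; per the submitters' processing notes the build is mm10 and the tools include HISAT2, StringTie, limma, DESeq2 and bcl2fastq 2.0, without saying which step made the table. How transcripts were combined into genes and the total reads are not given in the sources used here, so the depth was only estimated, from the commonest ratio of values under 0.3 FPKM between libraries. Libraries correlated at 0.973 or more within groups.

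Values were tested as log2(FPKM + 1) with limma 3.58.1 (trended variance, R 4.3.3) in the 11241 genes averaging 1 FPKM or more, two-sided. Benjamini-Hochberg adjustment ran over all of them, with a threshold of 0.05. The procedure was first run on simulated data with independent noise for each gene, which cannot test effects shared by the genes of a library. Ratios within libraries used exact permutation tests. Exon overlaps came from GENCODE M21 and promoters from RefSeq. The 10 genes and the lists were chosen with earlier results of these data known. Beyond the 10 genes, those named are up to 3 per list of lowest p, Cdkn2a, Atf4, the top marker of a list and genes said to be singled out. Alternatives changed the pseudocount, filter, scaling, variance trend, library weights or replicate block, or left out 1 library.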

Additional observations from a re-analysis of the deposited data

How the results depend on the processing

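Ccng1 was lower in YKL-40 tumours under all alternatives run. Its call was lost without a filter on low values (-0.95, adjusted p = 0.106) and in 4 of 6 fits that left out 1 library, in which the change ranged from -1.01 to -0.88 and the adjusted p from 0.0159 to 0.103. Of the 10 genes 1 was called lower. Leaving out 1 library gave between 0 and 2, the absence of a filter gave 0, and array quality weights gave 4: Ccng1, Gdf15 (-1.01), Aen (-0.61) and Trp53inp1 (-0.90). Gdf15 ranged from -1.003 to -0.69 when 1 library was left out. Array quality weights called 1111 of all 11241 tested genes, 446 of them lower. Of the other targets they called 4 lower and 2 higher, and with them Bax turned to -0.066 and Atf4 to -0.26. Leaving out 1 library moved Bax between -0.092 and 0.0725, Cdkn1a between -0.20 and 0.24 and Atf4 between -0.15 and 0.19.

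Over all genes 49 were called, 8 of them lower. Without a filter the counts were 1 and 0, with weights 1111 and 446, and with 1 library left out 0 to 238 and 0 to 40; where 0 were called, without Control library 2, 1345 had an unadjusted p below 0.05. A filter at a mean of 5 FPKM gave 4 lower and left Bbc3, Gdf15 and Sesn2 untested, and Bbc3 also fell below the filter without Control library 3. Deviations from the group means correlated at -0.08, -0.19 and 0.00 between libraries of the same replicate number. With 3 libraries in each group this cannot exclude a pairing. A limma fit with the replicate block called 120 genes, among them Ccng1 of the 10 (adjusted p = 0.0469) and Chac1 outside them (adjusted p = 0.0496). No scaling moved the median of all genes by more than 0.1. The cause of these shifts was not tested. Unknown depth limits the lowest genes, Bbc3, Gdf15 and Sesn2, most.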
